A study of Homo sapiens with 16 samples.

Results

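The 7 genes described here, *MICA*, *MICB*, *ULBP1*, *ULBP2*, *ULBP3*, *RAET1E* and *RAET1G*, encode ligands of NKG2D and were taken by symbol from the 34228 genes of the RNA-Seq count table. Gene expression was measured in 451Lu-R and 1205Lu-R, BRAF inhibitor-resistant derivatives of the human melanoma cell lines 451Lu and 1205Lu. Cells of each line were treated for 24 h with 2.5 μM corin, a dual inhibitor of the histone deacetylase and LSD1 demethylase activities of the CoREST corepressor complex, or with DMSO as the control. Each of the 4 groups (451Lu-R DMSO, 451Lu-R corin, 1205Lu-R DMSO and 1205Lu-R corin) had 2 libraries. The labels do not say whether the replicates of a group were separate cultures, so the tests measure the spread between these libraries, which may be technical.

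NKG2D is an activating receptor of NK cells and cytotoxic T cells that signals through the adaptor DAP10. Its ligands are relatives of MHC class I molecules that are scarce on most healthy cells and appear after DNA damage, heat shock, transformation or viral infection, so that their display marks a cell for killing. Tumor cells can lose them again from the surface when metalloproteases cut them off, and histone deacetylase inhibitors are known to raise several of them in tumor cell lines.

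Libraries held from 9516687 to 11797788 estimated counts. Levels are given as counts-per-million values of the library total (CPM), and levels of different genes are compared only as CPM per kb of exon. A gene with 3 counts or fewer in every library of a group was taken to be at the floor, which corresponds to 0.254 to 0.315 CPM depending on the library. The labels of the lines were checked against lineage markers. Such markers tell 451Lu from 1205Lu cells but not resistant from parental cells. The titles of the libraries used name the lines without the R, so that the cells were resistant is taken from the paper's description. All 9 melanocyte markers lay above the floor in 451Lu-R, whereas in 1205Lu-R *SOX10* and *TYR* had 0 counts in every library, and the summed level of the 9 markers was 28.8 to 30.8 CPM under DMSO and 48.1 to 55.6 CPM under corin. Of 13 markers of NK or T cells, 9 were in the table, and their summed level (99.9 to 103 CPM and 231 to 232 CPM in 451Lu-R under DMSO and corin, 266 to 277 CPM and 517 to 520 CPM in 1205Lu-R) was almost wholly *NCAM1*, which neural crest-derived cells can also express. *KLRK1*, the gene of NKG2D itself, had at most 5 counts in any library, and *HCST*, the gene of DAP10, at most 3. *KLRD1* (7.0 to 34.3 counts) and *CD8A* (1 to 17) had counts in every library. With corin, *KLRD1* was called higher in 1205Lu-R (log2 fold change 0.70 ± 0.296 (SE), FDR = 0.0364) but not in 451Lu-R (0.87 ± 0.406, FDR = 0.0546). *GZMB* had 0 counts in every library but 1205Lu-R corin replicate 1, which had 2, and *PRF1* had 21 and 10 counts in 451Lu-R corin, 3 and 5 in 1205Lu-R corin and 0 under DMSO. The part of these rises in the ligand values was not tested.

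The ligand genes lie on chromosome 6 in 2 places (GRCh38, GENCODE 44). *MICA* (ENSG00000204520, chr6:31399784-31415315, plus strand) and *MICB* (ENSG00000204516, chr6:31494881-31511124, plus strand) lie in the class I part of the MHC, 79.6 kb apart. The 5 others lie within 186 kb on the long arm: *RAET1E* (chr6:149883179-149898113), *RAET1G* (chr6:149916878-149923121) and *ULBP3* (chr6:150061053-150069121) on the minus strand, and *ULBP2* (chr6:149942014-149949235) and *ULBP1* (chr6:149963943-149973715) on the plus strand. All counts are sums over the transcripts of a gene.

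Under DMSO, 5 of the 7 ligands lay above the floor in 451Lu-R and 6 in 1205Lu-R. *ULBP1* was at the floor in all 4 groups: the estimated counts were 0 in the 4 DMSO libraries, 1.5 and 0 in the 451Lu-R corin libraries and 0 and 1.0 in the 1205Lu-R corin libraries, so no fold change is given and no response was detectable at this depth. Per kb of exon, 451Lu-R under DMSO had *MICA* highest (6.58 ± 0.275 CPM per kb, mean ± SD, n = 2), followed by *ULBP3* (4.0 ± 0.384), *ULBP2* (3.07 ± 0.511), *MICB* (1.12 ± 0.144) and *RAET1G* (0.336 ± 0.214), and no neighbours in that order overlapped between libraries. The order differed in 1205Lu-R under DMSO, where *ULBP2* was highest (10.2 ± 0.193 CPM per kb) and *ULBP3* (6.65 ± 0.271), *MICA* (2.69 ± 0.277), *MICB* (2.34 ± 0.120), *RAET1G* (0.380 ± 0.190) and *RAET1E* (0.0613 ± 0.0368) followed, again without overlap between neighbours.

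**Figure D1:**
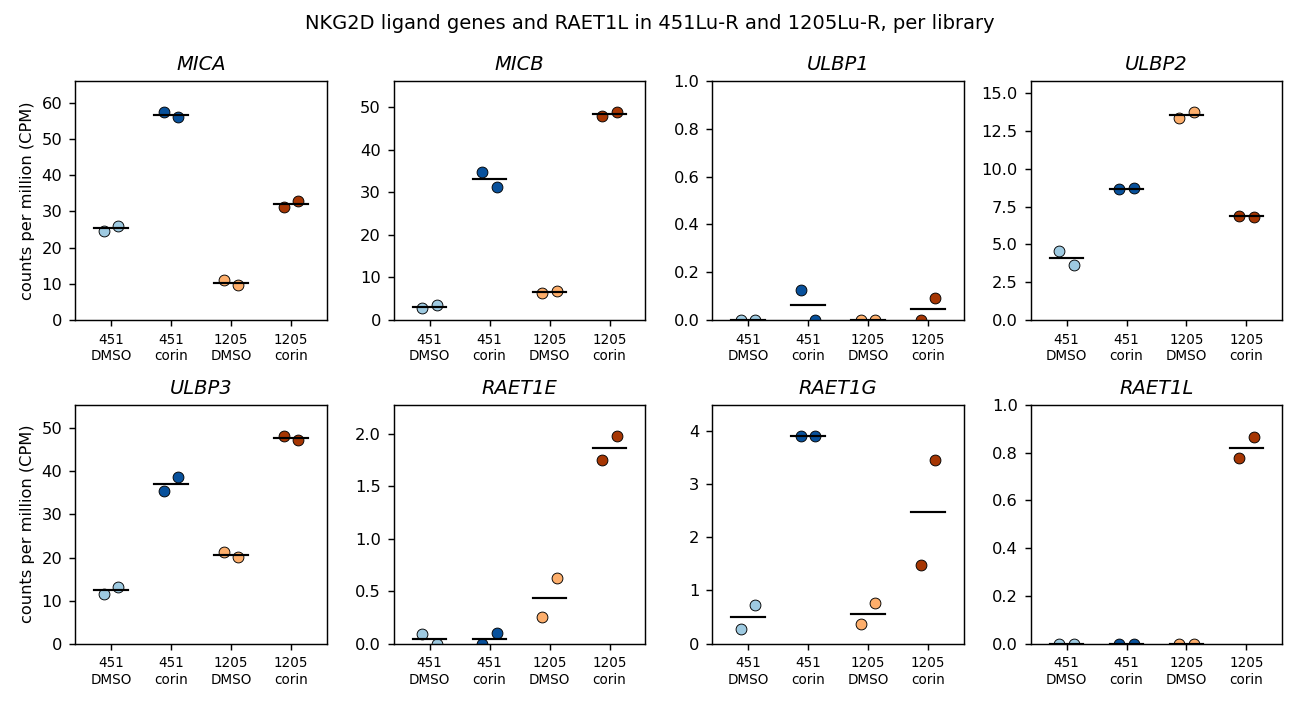
Level in CPM (vertical axes, linear from 0 and scaled per gene) of the 7 NKG2D ligand genes and their relative RAET1L in the 4 groups. Points are libraries and bars the mean of 2. The corin libraries lay above the DMSO libraries of their line for MICA, MICB, ULBP3 and RAET1G, whereas ULBP2 rose in 451Lu-R but went from 13.4 and 13.7 to 6.90 and 6.84 CPM in 1205Lu-R.

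Corin against DMSO asked which ligand transcripts respond to the drug. In 451Lu-R, all 5 ligands that could be tested were higher with corin, with a median log2 fold change of 1.68 against 0.03 for all 14530 genes tested. *ULBP1* and *RAET1E* had too few counts to be tested. Corin moved most of the transcriptome in this line: 41.3% of the genes tested were called higher and 38.6% lower (edgeR quasi-likelihood test, FDR under 0.05), and 22.2% were called higher by 2-fold or more, as all 5 ligands were. In 1205Lu-R, 5 of 6 ligands tested were higher and *ULBP2* was lower, with a median log2 fold change of 1.74 against 0.03 for all 14563 genes. There, 40.4% of genes were called higher and 37.8% lower. The 5 higher ligands also passed the 2-fold limit, as 22.0% of genes did, and so did *ULBP2* as 1 of the 9.80% of genes lower by 2-fold or more. At FDR under 0.001 and 4-fold or more, *MICB* and *RAET1G* were higher in 451Lu-R (12.4% of genes) and again in 1205Lu-R (11.3%), and 0 ligands were lower in either line (2.72% and 1.43% of genes). The stricter call of *RAET1G* in 1205Lu-R depended on the tool, as DESeq2 gave an adjusted p-value of 0.0126 there.

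*MICB*, a stress-induced surface ligand encoded beside *MICA*, had the highest estimated rise of the ligands in both lines, with a 95% confidence interval that overlapped that of *RAET1G* in each. Without 451Lu-R DMSO replicate 2, the estimate for *RAET1G* was the higher in 451Lu-R (log2 fold change 3.86 against 3.63). In 451Lu-R it had 2.84 and 3.41 CPM under DMSO and 34.8 and 31.3 CPM under corin, which was an 11.4-fold rise (log2 fold change 3.51 ± 0.137 (SE), n = 2 and 2, FDR = 6.87e-15). In 1205Lu-R the levels were 6.31 and 6.78 CPM under DMSO and 47.8 and 48.8 CPM under corin (7.0-fold, log2 fold change 2.81 ± 0.100, FDR = 1.22e-16). Every corin library lay above every DMSO library in each line. The starting level rested on 31 and 33 estimated counts in 451Lu-R and on 69.8 and 72 in 1205Lu-R.

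*MICA*, whose product is the most polymorphic of the ligands, was the ligand with most reads in 451Lu-R. It had 24.6 and 26.1 CPM under DMSO and 57.4 and 56.1 CPM under corin in that line (2.40-fold, log2 fold change 1.27 ± 0.073, FDR = 3.86e-12). In 1205Lu-R it went from 11.1 and 9.60 CPM to 31.1 and 33.0 CPM (2.94-fold, log2 fold change 1.56 ± 0.105, FDR = 9.70e-12). Levels of DMSO and corin libraries did not overlap, and the corin level of 1205Lu-R lay only slightly above the DMSO level of 451Lu-R.

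Because *MICA* and *MICB* rose together in both lines, the sequences around their starts are shown (RefSeq, GRCh38.p14, from 250 bases before to 50 after the start, plus strand, *MICA* chr6:31403345-31403644 and *MICB* chr6:31497895-31498194). Both RefSeq starts lie downstream of the 5′ end of the GENCODE gene. Capitals mark the heat shock element core GAANNTTC, the GC box GGGCGG (here read on the other strand) and the CCAAT box (also read on the other strand):
MICA: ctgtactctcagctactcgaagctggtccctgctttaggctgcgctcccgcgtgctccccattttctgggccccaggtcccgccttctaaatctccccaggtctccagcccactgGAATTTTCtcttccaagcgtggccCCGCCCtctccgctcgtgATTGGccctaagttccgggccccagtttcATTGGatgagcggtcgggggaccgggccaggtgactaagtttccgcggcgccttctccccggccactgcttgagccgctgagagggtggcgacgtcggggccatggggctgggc
MICB: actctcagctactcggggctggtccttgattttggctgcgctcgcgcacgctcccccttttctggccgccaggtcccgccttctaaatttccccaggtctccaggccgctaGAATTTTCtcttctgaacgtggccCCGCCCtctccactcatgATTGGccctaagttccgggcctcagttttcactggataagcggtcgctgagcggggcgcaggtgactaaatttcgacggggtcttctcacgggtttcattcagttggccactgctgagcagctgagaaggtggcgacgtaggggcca
The windows were 77.8% identical when aligned. Both held the heat shock element core, which starts at position -135 of *MICA* and -139 of *MICB* and was found in 6.77% of 35116 promoter windows of the same length. Each held 1 GC box (45.0% of windows), and the CCAAT box (34.6% of windows) occurred 2 times in *MICA* and 1 time in *MICB*. A match of letters is not evidence of a bound factor.

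*ULBP3*, which is held in the membrane by a glycolipid anchor, was the other ligand of high level that rose in both lines. In 451Lu-R it had 11.6 and 13.3 CPM under DMSO and 35.5 and 38.7 CPM under corin (3.21-fold, log2 fold change 1.68 ± 0.097, FDR = 3.52e-12). In 1205Lu-R it had 21.3 and 20.1 CPM under DMSO and 48.2 and 47.2 CPM under corin (2.19-fold, log2 fold change 1.13 ± 0.077, FDR = 1.13e-11). The groups did not overlap in either line.

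*ULBP2*, another glycolipid-anchored ligand, was the only ligand of those tested in both lines that was called in opposite directions. It rose in 451Lu-R, with 4.59 and 3.62 CPM under DMSO and 8.65 and 8.70 CPM under corin (2.25-fold, log2 fold change 1.17 ± 0.185, FDR = 9.55e-06). It fell in 1205Lu-R, with 13.4 and 13.7 CPM under DMSO and 6.90 and 6.84 CPM under corin (2.07-fold lower, log2 fold change -1.05 ± 0.138, FDR = 4.97e-07). The lines thus started 3.53-fold apart and came close under corin, where the order was reversed and the 451Lu-R libraries lay above those of 1205Lu-R. The rise in 451Lu-R rested on 50 and 35 estimated counts under DMSO.

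As *ULBP2* and *ULBP3* lie in the same cluster and differed in their response in 1205Lu-R, the sequences around their starts are also shown (RefSeq, GRCh38.p14, *ULBP2* chr6:149941764-149942063 on the plus strand, *ULBP3* chr6:150069072-150069371 on the minus strand). Capitals mark the GC box GGGCGG, the CCAAT box, the AP-1 site TGANTCA and the ATF4 core TGATGNAA (read on the other strand in *ULBP2*):
ULBP2: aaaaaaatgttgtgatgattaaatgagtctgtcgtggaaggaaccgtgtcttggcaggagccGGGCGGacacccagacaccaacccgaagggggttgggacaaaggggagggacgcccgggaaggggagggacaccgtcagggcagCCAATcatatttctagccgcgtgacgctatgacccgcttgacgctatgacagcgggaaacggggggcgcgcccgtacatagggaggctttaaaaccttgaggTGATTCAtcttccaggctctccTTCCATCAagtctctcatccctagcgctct
ULBP3: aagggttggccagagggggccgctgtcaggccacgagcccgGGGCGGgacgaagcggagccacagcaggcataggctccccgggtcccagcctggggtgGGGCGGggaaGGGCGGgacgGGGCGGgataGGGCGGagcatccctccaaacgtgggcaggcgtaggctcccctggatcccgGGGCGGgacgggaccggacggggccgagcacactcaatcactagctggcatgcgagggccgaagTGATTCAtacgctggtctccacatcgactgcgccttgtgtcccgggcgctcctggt
The windows were 50.8% identical. Both held an AP-1 site over or next to the start, beginning at position -2 in *ULBP2* and -6 in *ULBP3*, which 7.71% of promoter windows hold. The *ULBP3* window held 6 GC boxes and that of *ULBP2* held 1, whereas a CCAAT box and the ATF4 core (3.62% of windows) were matched in *ULBP2* but not in *ULBP3*. Neither window nor those of *MICA* and *MICB* matched the CRE core TGACGT (7.98% of windows), the E2F core TTTCGCGC (0.515%), the E box CACGTG (7.26%) or the TATA box TATAAA (11.5%). None of the matches shown in these 4 windows overlapped each other.

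*RAET1G* and *RAET1E*, which encode ULBP5 and ULBP4, were expressed at low levels. *RAET1G* had 3 and 7 estimated counts in 451Lu-R under DMSO and 46 and 39 under corin, or 0.275 and 0.724 CPM against 3.90 and 3.90 CPM (8.39-fold, log2 fold change 3.07 ± 0.407, FDR = 8.71e-07), and the log2 fold change was 3.86 without DMSO replicate 2. In 1205Lu-R it had 4 and 8.1 counts under DMSO and 14 and 38.4 under corin (4.23-fold, log2 fold change 2.08 ± 0.495, FDR = 0.000596). The corin libraries of 1205Lu-R differed by more than a factor of 2 in CPM (1.47 and 3.46), and without the higher of them, replicate 2, the call was lost (log2 fold change 1.31, FDR = 0.115).

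*RAET1E* was at the floor in 451Lu-R, with 1 and 0 counts under DMSO and 0 and 1 under corin. It was above the floor in 1205Lu-R, with 2.8 and 6.6 counts under DMSO and 16.7 and 22 under corin, or 0.253 and 0.626 CPM against 1.75 and 1.98 CPM (3.82-fold, log2 fold change 1.93 ± 0.483, FDR = 0.000914). The log2 fold change was 2.66 without DMSO replicate 2 (FDR = 0.00242) and 1.42 without DMSO replicate 1 (FDR = 0.0397). The corin libraries of 1205Lu-R lay above all 6 other libraries.

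**Figure D2:**
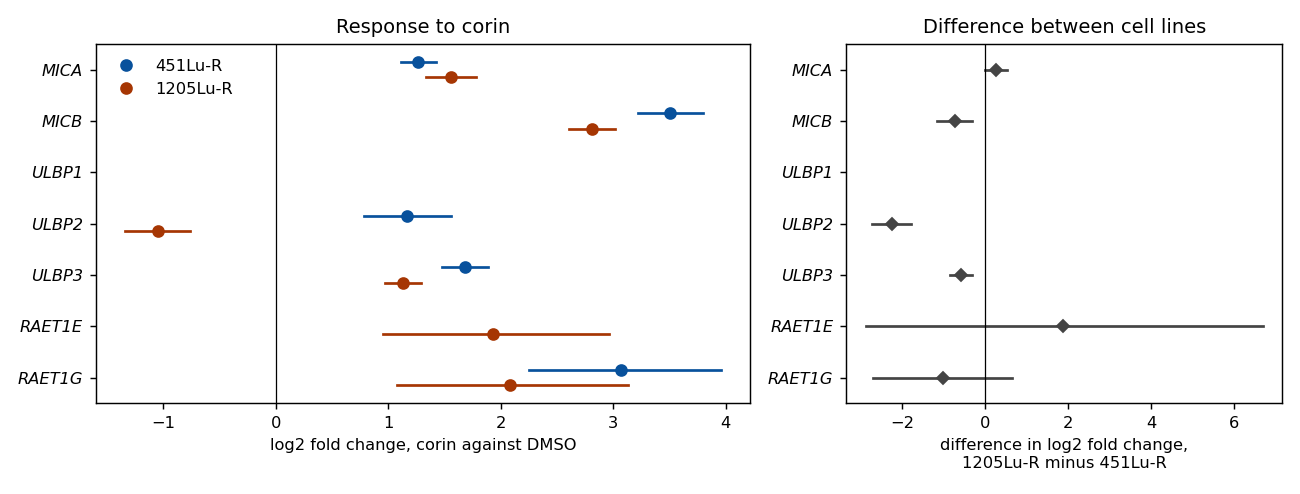
Left, log2 fold change of corin against DMSO (horizontal axis) for each ligand in 451Lu-R (blue) and 1205Lu-R (brown). Right, difference of these responses, 1205Lu-R minus 451Lu-R, on a log2 scale. Points are edgeR estimates and lines 95% confidence intervals from 2 libraries per group. ULBP1 was not tested, and RAET1E was not tested in 451Lu-R alone. ULBP2 is the ligand whose intervals lie on opposite sides of 0 in the lines, and the intervals of MICB, ULBP2 and ULBP3 lie below 0 on the right.

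The difference between the lines in the response to corin was tested with an interaction term on all 8 libraries. Of 6 ligands tested, 3 had a lower log2 fold change in 1205Lu-R than in 451Lu-R and 0 a higher one, where 27.1% of the 16062 genes tested were called lower and 22.6% higher. *ULBP2* alone passed the 2-fold limit (9.46% of genes lower) and the stricter 4-fold limit (3.13%). The difference was largest for *ULBP2*, at -2.25 ± 0.225 on the log2 scale (FDR = 2.64e-08). It was -0.74 ± 0.202 for *MICB* (FDR = 0.00431) and -0.59 ± 0.126 for *ULBP3* (FDR = 0.000480), so these ligands rose in both lines but by less in 1205Lu-R. Without 451Lu-R DMSO replicate 1, the difference for *MICB* was -0.62 and was no longer called (FDR = 0.0554).

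For the other ligands a difference between the lines was not called. That of *MICA* was 0.25, with a 95% confidence interval from -0.01 to 0.52 (FDR = 0.104), and it was called higher in 1205Lu-R when libraries were scaled by their size alone (0.46, FDR = 0.00361). The median difference over all genes moved from -0.01 to 0.20 with that scaling. The intervals of *RAET1G* (-2.71 to 0.64, FDR = 0.310) and *RAET1E* (-2.89 to 6.69, FDR = 0.534) were wide, and the estimate for *RAET1E* changed sign when 451Lu-R DMSO replicate 1 was left out (-0.42).

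The lines were also compared under each treatment, with the same libraries as above. Under DMSO, *ULBP2* (3.53-fold, log2 difference 1.82 ± 0.171, FDR = 5.13e-10), *MICB* (2.26-fold, 1.18 ± 0.213, FDR = 2.00e-05) and *ULBP3* (1.81-fold, 0.85 ± 0.114, FDR = 2.25e-07) were higher in 1205Lu-R, and *MICA* was lower there (2.26-fold, -1.18 ± 0.112, FDR = 6.52e-10). These were all 4 ligands tested, where 41.0% of genes were called higher in 1205Lu-R and 41.5% lower. *RAET1E* and *RAET1G*, with under 10 counts in each DMSO library, were not tested. At FDR under 0.001 and 4-fold or more, 0 of these ligands were called, where 10.1% of genes were higher and 10.6% lower.

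Under corin, the estimated difference between the lines was smaller for each of the 4 ligands tested under both treatments, a change that the interaction test above called for all but *MICA*. *MICA* remained lower in 1205Lu-R (1.88-fold, log2 difference -0.91 ± 0.066, FDR = 4.90e-10), and *MICB* (1.37-fold, 0.45 ± 0.070, FDR = 1.13e-05) and *ULBP3* (1.21-fold, 0.28 ± 0.068, FDR = 0.00122) remained higher. *RAET1E* was at least 6.74-fold higher in 1205Lu-R, computed against 3 counts per library in 451Lu-R. *ULBP2* (1.34-fold, -0.42 ± 0.163, FDR = 0.0248) and *RAET1G* (1.65-fold, -0.72 ± 0.316, FDR = 0.0437) were lower, so 3 of 6 ligands tested were higher and 3 lower, where 39.0% and 40.2% of all genes were. By 2-fold or more, *RAET1E* was higher and 0 ligands were lower (18.6% and 19.9% of genes), and likewise at FDR under 0.001 and 4-fold or more (8.45% and 8.55%). The last pair of calls was weak: DESeq2 gave adjusted p-values of 0.159 for *ULBP2* and 0.149 for *RAET1G*. The *ULBP2* call was lost when any of the 4 libraries was left out (FDR from 0.0526 to 0.0852), and that of *RAET1G* without either 451Lu-R library (FDR = 0.105 and 0.0822) or without 1205Lu-R corin replicate 1, when the difference was -0.27 (FDR = 0.462).

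The makeup of the ligand transcripts changed with corin. Summed over the 7 genes, the level was 45.5 ± 2.23 CPM (SD, n = 2) in 451Lu-R under DMSO and 139.6 ± 1.13 CPM under corin. In 1205Lu-R the sums were 52.2 ± 0.771 and 139.3 ± 2.92 CPM. The corin sums of the lines overlapped, with 140.4 and 138.8 CPM in 451Lu-R and 137.3 and 141.4 CPM in 1205Lu-R.

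Per kb of exon, the share of *MICB* in the summed level rose from 7.39% to 24.8% in 451Lu-R and from 10.5% to 36.0% in 1205Lu-R, where it became the ligand of highest level (17.3 ± 0.253 CPM per kb). *ULBP2* made up 45.6% in 1205Lu-R under DMSO and 10.7% under corin, and *MICA* went from 43.5% to 30.9% in 451Lu-R and from 12.1% to 17.3% in 1205Lu-R. Under corin the order in 451Lu-R was *MICA* (14.7 ± 0.237 CPM per kb), *ULBP3* (11.9 ± 0.710), *MICB* (11.8 ± 0.874), *ULBP2* (6.50 ± 0.0276) and *RAET1G* (2.62 ± 0.00043). *ULBP3* and *MICB* overlapped there, and the other neighbours did not. In 1205Lu-R *MICB* was followed by *ULBP3* (15.3 ± 0.227), *MICA* (8.32 ± 0.346), *ULBP2* (5.14 ± 0.0306), *RAET1G* (1.66 ± 0.945) and *RAET1E* (0.260 ± 0.0225), without overlap. Exon lengths are those of all annotated exons together, so the order depends on which transcripts the cells use.

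**Figure D3:**
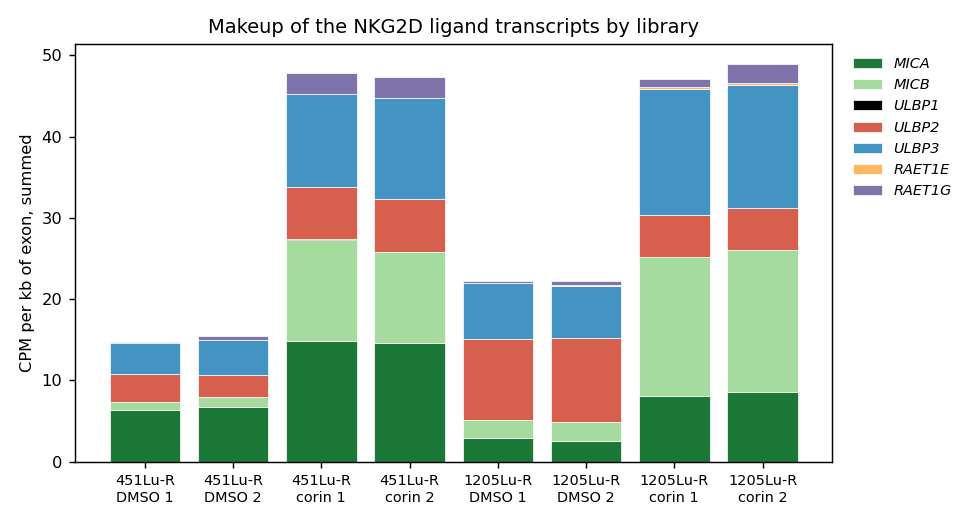
Summed level of the 7 NKG2D ligand genes in CPM per kb of exon (vertical axis, linear from 0) in each of the 8 libraries, with 1 color per gene. The corin bars are higher than the DMSO bars of their line, MICB (light green) widens in both lines, and ULBP2 (red) makes up 45.6% under DMSO and 10.7% under corin in 1205Lu-R.

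Several ligand genes share sequence, and salmon divides reads that fit more than 1 gene. Of the 31-base stretches of *ULBP2* transcripts, 42.1% also occur in *RAET1L*, which encodes ULBP6. *RAET1G* shares 16.7% with *RAET1L*, *MICB* shares 7.5% with *MICA*, *MICA* 5.3% with *MICB*, and *ULBP3* 10.5% with *ULBP1*. *RAET1L* had 0 counts in 6 libraries and 7.4 and 9.6 counts in 1205Lu-R under corin, at least 2.96-fold above DMSO. When *ULBP2*, *RAET1L* and *RAET1G* were summed before the test, the sum was higher with corin in 451Lu-R (log2 fold change 1.54 ± 0.158, FDR = 2.67e-08) but lower in 1205Lu-R (-0.54 ± 0.133, FDR = 0.000906), with a difference of -2.12 ± 0.207 (FDR = 1.90e-08). *MICA* and *MICB* summed rose in both lines (1.76 ± 0.066 and 2.18 ± 0.071) and by more in 1205Lu-R (0.38 ± 0.100, FDR = 0.00361). That sum weighs each gene by its counts. Under DMSO, *MICA*, with the smaller rise, had 268 and 252 counts against 31 and 33 of *MICB* in 451Lu-R. In 1205Lu-R the counts were 123 and 102 against 69.8 and 72. A difference in the sum is thus not a difference in either gene.

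Annotated overlaps with other genes touched *MICA*, *MICB*, *RAET1E* and *RAET1G*, whereas *ULBP1*, *ULBP2* and *ULBP3* had none. *RAET1E* overlaps a gene on its own strand that has no symbol and shares 14.2% of its 31-base stretches, and which had at most 7 counts in any library, so the *RAET1E* counts are uncertain. *RAET1E* and *RAET1G* also overlap the antisense gene *RAET1E-AS1*, whose group means were 0.0975 to 0.241 CPM, and *MICB* overlaps *MICB-DT*, with group means of 0 to 0.223 CPM. *MICA* overlaps a different gene without a symbol on its own strand, which also overlaps *HCP5* and is not among the genes counted. Any part of its reads in the *MICA* and *HCP5* values was not tested. Whether the reads were assigned by strand is not given in the sources used here.

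Neighbors of the ligand genes within 100 kb did not all move with them. Near *MICA* and *MICB*, *HLA-B*, a classical class I gene, rose in both lines (log2 fold change 0.94 ± 0.049 in 451Lu-R, 0.64 ± 0.032 in 1205Lu-R). *DDX39B*, an RNA helicase of mRNA export, fell (-1.01 ± 0.042 and -0.52 ± 0.038), as did *NFKBIL1* (-0.96 ± 0.138 and -1.50 ± 0.160). The noncoding *HCP5* was at least 8.71-fold and 2.82-fold higher. In all, 2 of 5 neighbors tested there were higher and 3 lower in 451Lu-R, where 41.3% and 38.6% of all genes were. In 1205Lu-R, 1 of 4 was higher and 3 lower, where 40.4% and 37.8% of all genes were. So few genes cannot show whether neighbors differ from other genes.

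Around the *ULBP* cluster, 3 of 3 neighbors tested were higher in 451Lu-R, where 41.3% of all genes were. In 1205Lu-R, 3 of 4 were higher and 0 lower, where 40.4% and 37.8% of all genes were. These genes, too, are too few to show whether neighbors differ from other genes. The largest change common to both lines was that of *PPP1R14C*, an inhibitor of protein phosphatase 1, at 2.48 ± 0.088 and 2.81 ± 0.117 on the log2 scale. *LRP11*, beside *RAET1E*, rose by 0.40 ± 0.053 and 0.38 ± 0.053. *PCMT1*, a protein repair methyltransferase, rose in 451Lu-R (0.47 ± 0.033) and had a log2 fold change of -0.03 ± 0.039 in 1205Lu-R (FDR = 0.531). None of these neighbors was called lower in 1205Lu-R, where *ULBP2* fell.

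The genes most like each ligand were sought among 13200 genes by the root mean square difference of gene-centered log2(CPM + 0.5) over the 8 libraries. For *MICB* they were *DUSP1*, a phosphatase that switches off MAP kinases, *INPP5J* and the metallothionein *MT1X* (differences of 0.166, 0.167 and 0.167). *DUSP1* had log2 fold changes of 3.54 (451Lu-R) and 2.98 (1205Lu-R), *INPP5J* 6.24 and 3.03, and *MT1X* 3.63 and 2.54. The added 0.5 CPM damps changes at low levels, so a small difference does not require like fold changes. For *ULBP2* they were the Wnt receptor *FZD1* (0.133), *PNMA1* (0.177) and the small GTPase *RALB* (0.180), and *FZD1* had log2 fold changes of 1.13 and -1.07. *ULBP3* was nearest to *RHBDD2* (0.0638), the tight junction gene *TJP1* (0.0867) and *C2orf27A* (0.0969), and *MICA* to the depalmitoylase *ABHD17B* (0.0745), the phospholipase *PLA2G12A* (0.0869) and *PCTP* (0.103). *RAET1G*, at its low counts, had less close matches, *LINC02328* (0.252), *RND1* (0.282) and *ZSWIM5* (0.292). All of these genes lie on other chromosomes than the ligands.

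Genes that act on the ligand proteins were described next. Of 11 genes of ligand shedding, 7 were higher and 4 lower with corin in 451Lu-R, against 41.3% and 38.6% of all genes tested. In 1205Lu-R, 6 were higher and 5 lower, against 40.4% and 37.8%. The median log2 fold changes of the list were 0.47 in 451Lu-R and 0.15 in 1205Lu-R. *MMP14*, a membrane metalloprotease known to cut MICA from the surface, went from a mean of 640 to 104 CPM in 451Lu-R (log2 fold change -2.52 ± 0.030) and from 748 to 213 CPM in 1205Lu-R (-1.88 ± 0.031). *MMP9*, a secreted gelatinase, was at least 19.2-fold higher in 451Lu-R and rose by 2.56 ± 0.181 in 1205Lu-R. The inhibitors *RECK* (1.07 ± 0.135 and 1.41 ± 0.103) and *TIMP1* (0.47 ± 0.036 and 1.68 ± 0.020) rose in both lines, whereas *TIMP3* was higher with corin in 451Lu-R (1.21 ± 0.024) but lower in 1205Lu-R (-0.23 ± 0.014). Transcript levels say nothing of how much ligand stood on the cell surface.

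Genes of the pathways known to drive the ligands changed in both directions. Their transcript levels do not measure the activity of these pathways, and their part in the ligand values was not tested. In 451Lu-R, 14 of 21 genes of DNA damage signaling were lower with corin and 3 higher, against 38.6% and 41.3% of all genes. In 1205Lu-R, 10 were lower and 7 higher, against 37.8% and 40.4%. The checkpoint kinase *CHEK1* fell (-1.64 ± 0.122 and -1.34 ± 0.068), as did the cell cycle phosphatase *CDC25A* (-2.81 ± 0.134 and -2.82 ± 0.113) and *TOPBP1*, an activator of the kinase ATR (-1.44 ± 0.071 and -1.80 ± 0.044). *CDKN1A*, which encodes the cell cycle inhibitor p21, rose (6.77 ± 0.072 and 2.18 ± 0.035).

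Of 19 transcription factors known to act on ligand genes, 11 were lower and 4 higher in 451Lu-R, against 38.6% and 41.3% of all genes. In 1205Lu-R, 12 were lower and 5 higher, against 37.8% and 40.4%. The stress factor *ATF3* rose in both lines (2.99 ± 0.181 and 2.32 ± 0.165), and *DDIT3* rose in 1205Lu-R (1.40 ± 0.168) and was 0.23 ± 0.151 in 451Lu-R (FDR = 0.174). *E2F3* (-2.54 ± 0.108 and -1.27 ± 0.115), *E2F2* (-1.12 ± 0.166 and -1.93 ± 0.124) and *NFKB1* (-2.10 ± 0.094 and -1.40 ± 0.079) fell in both. *MYC* fell steeply in 451Lu-R (-2.69 ± 0.046) and slightly in 1205Lu-R (-0.28 ± 0.059), and these changes differed (interaction FDR = 2.73e-16).

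Ligands of other NK cell receptors were compared with those of NKG2D. Of the other activating ligands, 9 of 13 tested were higher and 4 lower with corin in 451Lu-R, against 41.3% and 38.6% of all genes. In 1205Lu-R, 5 of 12 were higher and 5 lower, against 40.4% and 37.8%. By 2-fold or more, 4 were higher in 451Lu-R and 3 in 1205Lu-R, against 22.2% and 22.0% of all genes. *TNFSF9*, the ligand of 4-1BB, rose (4.70 ± 0.088 and 2.40 ± 0.045), as did *ICAM1*, which binds LFA-1 (0.67 ± 0.046 and 2.70 ± 0.040), and *PVR*, which binds DNAM-1 and TIGIT (0.79 ± 0.059 and 1.22 ± 0.039). *CLEC2B*, the ligand of NKp80, fell (-1.63 ± 0.265 and -2.35 ± 0.109). *SLAMF7* (3.36 ± 0.192) and *PDGFD* (2.12 ± 0.086) rose in 451Lu-R and were not tested in 1205Lu-R, where their group means were at most 0.241 and 0.0450 CPM.

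Inhibitory ligands were mostly called higher as well. In 451Lu-R, 12 of 13 tested were higher and 1 lower (median log2 fold change 0.94), against 41.3% and 38.6% of all genes. In 1205Lu-R, where 40.4% of genes were higher and 37.8% lower, 11 of 13 inhibitory ligands were higher and 1 lower (0.60). Among them were *HLA-E*, the ligand of CD94/NKG2A (1.10 ± 0.032 and 0.60 ± 0.039), *HLA-F* (1.67 ± 0.111 and 1.53 ± 0.144), *CLEC2D*, the ligand of CD161 (0.94 ± 0.251 and 1.75 ± 0.281), and *CDH2*, the N-cadherin gene, whose product is bound by KLRG1 (1.62 ± 0.058 and 1.03 ± 0.036). *CDH4* rose in 451Lu-R (3.15 ± 0.195), and *CEACAM1* fell there (-0.56 ± 0.068) and was at least 4.01-fold higher in 1205Lu-R. By 2-fold or more, 5 inhibitory ligands were higher in 451Lu-R and 4 in 1205Lu-R, against 22.2% and 22.0% of all genes. The list of inhibitory ligands had a smaller median than the 5 and 6 NKG2D ligands tested, and the medians were not compared by a test.

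Death receptors, through which NK cells can also kill, moved in both directions. In 451Lu-R, 4 of 7 tested were higher and 2 lower, against 41.3% and 38.6% of all genes. In 1205Lu-R, 1 of 8 was higher and 5 lower, against 40.4% and 37.8%. *TNFRSF10B*, a receptor of TRAIL, rose (2.04 ± 0.047 and 0.73 ± 0.029), and *FAS* (-1.13 ± 0.235 and -0.74 ± 0.137) and the inhibitor *CFLAR* (-1.13 ± 0.159 and -1.34 ± 0.070) fell. *TNFRSF1A* was higher with corin in 451Lu-R (0.65 ± 0.050) but lower in 1205Lu-R (-0.68 ± 0.033).

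**Figure D4:**
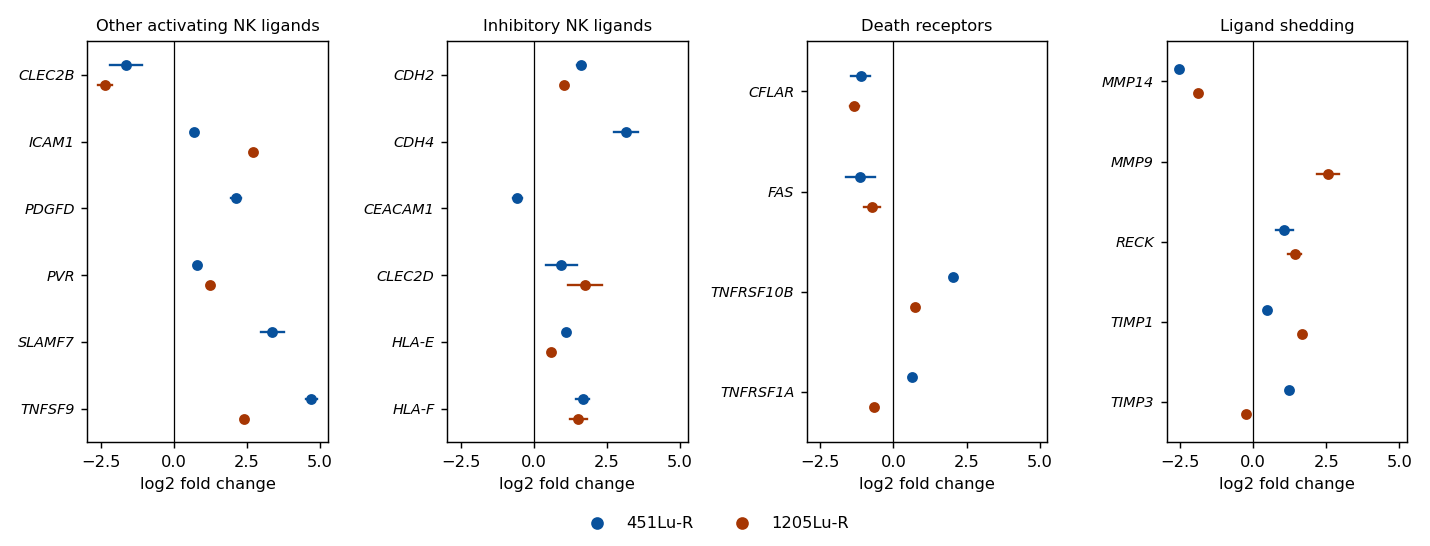
Log2 fold change of corin against DMSO (horizontal axes) for named genes of 4 lists in 451Lu-R (blue) and 1205Lu-R (brown). Points are edgeR estimates and lines 95% confidence intervals from 2 libraries per group, and a gene is left out in a line where a group was at the floor or the gene was not tested. CLEC2B, FAS, CFLAR and MMP14 lie below 0 in both lines, and TNFRSF1A and TIMP3 on opposite sides.

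The state of the cells changed in different directions. In 451Lu-R, *SOX10* fell from 758 to 234 CPM, *MITF*, the master factor of the pigment lineage, from 793 to 287 CPM, and *AXL*, a receptor kinase of undifferentiated melanoma, was at least 8.21-fold higher. The reverse held in 1205Lu-R, with *MITF* at 7.18 CPM under DMSO and 15.8 CPM under corin, and *AXL* at 962 and 476 CPM. Of 9 melanocyte markers, 7 were lower and 2 higher with corin in 451Lu-R, and 4 of 4 tested were higher in 1205Lu-R. Of 9 markers of the undifferentiated state, 7 of 8 tested were higher in 451Lu-R, against 4 higher and 5 lower in 1205Lu-R. Among all genes tested, 41.3% were called higher and 38.6% lower in 451Lu-R, against 40.4% and 37.8% in 1205Lu-R. The part of the cell state in the ligand values was not tested.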

How the data were processed

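RNA-Seq reads were trimmed with Trimmomatic and quantified by the authors with salmon against the GENCODE v32 transcriptome. The versions are not given in the sources used here. For the 8 DMSO and corin libraries, the deposited table holds expected counts per gene, as estimated by salmon and not normalized. For the 8 PLX4032 libraries the tables used hold only the authors' own log2 fold changes and adjusted p-values, which were not used, so these libraries were not analysed here. Of 34228 genes, 34052 matched a GENCODE 44 symbol.

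Counts were rounded and tested with edgeR 4.0.16 in R 4.3.3 (filterByExpr, TMM factors from 0.962 to 1.05, glmQLFit and glmQLFTest, 2-sided, Benjamini-Hochberg adjustment over all genes tested). A gene was called at FDR under 0.05. Each comparison was fitted on its own 4 libraries and the interaction on all 8. The SE is the absolute log2 fold change without edgeR's shrinkage over the square root of F. Intervals are 95% and centered on that unshrunken value. The log2 fold changes printed are edgeR's shrunken ones, so at low counts they are not at the center of their intervals. The procedure was tested on simulated data. Replicates differed by more than counting noise (chi-square over degrees of freedom, 1.34 to 1.41), so none was counted as a duplicate.

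The members and the gene lists were chosen with earlier results of these data known. Named genes were the 7 ligands, *RAET1L*, *KLRK1*, *HCST*, *MITF*, *SOX10* and *AXL*, at most 4 genes per list and line with the largest change (FDR under 0.05, at least 1 CPM, no overlap), at most 6 neighbors within 100 kb and the 3 genes most alike each ligand. A gene named by this rule is not reported here. *GZMB*, *CD8A*, *RAET1E-AS1* and *MICB-DT* were named after their values were seen. Alternatives were DESeq2 1.42.0, RLE or library size scaling, other filters, a block for the replicate number, 1 fit of all 8 libraries, summing genes of similar sequence, stricter calls and leaving out each library.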

Additional observations from a re-analysis of the deposited data

Results flagged for a closer look

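The response to corin differed between the lines, by the interaction test, for 3 of 6 ligands tested. It was called for 7984 of all 16062 genes tested, a like share, so the count says nothing particular to the ligands. For *ULBP2* the difference (1205Lu-R minus 451Lu-R) was -2.25 on the log2 scale, with both corin libraries above both DMSO libraries in 451Lu-R and both below them in 1205Lu-R. For *MICB* it was -0.74 and for *ULBP3* -0.59, with a rise in both lines. Groups of 2 libraries are too small for a test of outlying libraries.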

How the results depend on the processing

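Counts of ligands kept to within 1.5 times of the values above in 126 repeats under alternatives, with 18 smaller and 2 larger, and single ligands kept direction and call in 304 repeats, with 15 weaker, 1 stronger and 1 reversed. With genes of similar sequence summed, 3 sums or genes rose in 451Lu-R, 3 rose in 1205Lu-R and 1 had a higher log2 fold change in 1205Lu-R. At FDR under 0.001 and 4-fold or more, 2 ligands rose and 0 fell with corin in each line, 1 (*ULBP2*) had a lower log2 fold change in 1205Lu-R, 0 were higher and 0 lower in 1205Lu-R under DMSO, and 1 was higher and 0 lower under corin. At FDR under 0.05 and 2-fold or more, 1 (*ULBP2*) had a lower log2 fold change in 1205Lu-R, and under corin 1 was higher and 0 lower in 1205Lu-R. Scaling by library size alone gave 1 ligand (*MICA*) with a higher log2 fold change in 1205Lu-R and 1 lower there under corin, as did DESeq2 (1 lower). With that scaling, 5344 of 8347 genes called for the difference in response were higher, against 3625 of 7984. Leaving out 1 library gave 1 to 2 ligands lower in 1205Lu-R under corin, 4 to 5 higher with corin in 1205Lu-R and 2 to 3 with a lower log2 fold change there. A sole remaining library was assumed to vary like the others. The difference for *RAET1E* changed sign to -0.42 without 451Lu-R DMSO replicate 1, in a range up to 4.24.

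The replicate numbers did not pair the libraries (r of deviations -0.0129 in 451Lu-R, -0.00556 in 1205Lu-R). In a fit with a replicate block, 5 ligands rose in each line, 1 fell in 1205Lu-R and 3 had a lower log2 fold change there, and the block changed no call. Depth limits *ULBP1*, *RAET1E* and *RAET1G*, with under 50 counts in every library.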
